A study of Rattus norvegicus with 56 samples.

Results

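The mitochondrial ribosomal proteins were examined in rat hippocampal neuron cultures that had received magnetic stimulation. Members were the genes whose symbol starts with Mrpl or Mrps, matched to array probes by RefSeq accession, with the brightest probe standing for each gene. This gave 68 genes out of 13893 genes with a symbol that were tested, 42 named for the large subunit (Mrpl) and 26 for the small subunit (Mrps). They were covered by 85 probes, and all 68 were well above background on every array used. A further 10 protein-coding genes with these prefixes had no matched probe here: Mrpl28, Mrpl33, Mrpl39, Mrpl41l1, Mrpl42l1, Mrpl43, Mrps10, Mrps28, Mrps36l1 and Mrps6. No matched probe was found for Mrpl11 either.

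Cultures from embryonic day 18 Sprague-Dawley rats received repetitive transcranial magnetic stimulation (rTMS) from a coil under the dish, either at 1 Hz or as intermittent theta burst stimulation (iTBS, short bursts repeated in trains). For the sham arm the coil was about 20 cm away, and untreated control cultures were taken at 0 h only. RNA was taken 0, 2, 8, 24 or 48 h later and hybridised with 1 dye per array, so the 55 arrays used fell into 16 groups of 2 to 4, with 4 untreated, 17 sham, 16 1 Hz and 18 iTBS arrays. The question was which transcripts stimulation altered over 48 h, and whether the protocols differed. These were dissociated cultures of 1 strain without separate sorting, the labels do not say which dishes came from the same preparation, and p-values therefore measure the spread between these samples, which may be partly technical.

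The mitochondrial ribosome translates the few proteins that mitochondrial DNA encodes, all of them subunits of the respiratory chain and ATP synthase, which neurons depend on for their energy supply. Its ribosomal RNAs are made inside the organelle, whereas every one of its proteins is encoded in the nucleus, translated in the cytosol and imported. Some members have further or special roles: Mrpl12 and Mrpl10 form the stalk that recruits translation factors, Mrpl45 lies at the exit tunnel and helps attach the ribosome to the inner membrane, and Mrpl58 is a peptide release factor built into the large subunit. Mrps18a and Mrps30 carry small-subunit names but sit in the large subunit.

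The proximal promoters of 4 members are shown because 3 of them, Mrpl32, Mrpl48 and Mrpl52, had their lowest values on the same arrays, and because Mrps18b was the only member whose promoter held all 3 motifs searched. Sequences are the 250 bases before the start site, from RefSeq (GRCr8), written 5′ to 3′ on the gene's strand. Capitals mark the ETS motif CCGGAAG, the NRF1 core CATGCGC and the YY1 motif AAGATGG on either strand, so that an ETS match on the other strand reads CTTCCGG, an NRF1 match reads GCGCATG and a YY1 match reads CCATCTT. The run GCGCATGCGC holds the NRF1 core on both strands, overlapping.
Mrpl32, chr17:55260401-55260650, plus strand: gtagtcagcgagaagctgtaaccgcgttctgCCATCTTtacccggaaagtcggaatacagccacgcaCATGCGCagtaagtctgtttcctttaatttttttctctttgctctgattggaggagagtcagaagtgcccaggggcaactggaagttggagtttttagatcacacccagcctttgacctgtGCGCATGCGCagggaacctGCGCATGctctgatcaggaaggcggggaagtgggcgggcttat
Mrpl48, chr1:164351377-164351626, minus strand: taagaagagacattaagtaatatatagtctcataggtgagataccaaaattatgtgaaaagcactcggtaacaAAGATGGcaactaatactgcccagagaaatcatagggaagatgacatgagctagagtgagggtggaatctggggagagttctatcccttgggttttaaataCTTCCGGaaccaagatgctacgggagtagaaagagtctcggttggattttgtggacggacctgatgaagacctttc
Mrpl52, chr15:31852686-31852935, plus strand: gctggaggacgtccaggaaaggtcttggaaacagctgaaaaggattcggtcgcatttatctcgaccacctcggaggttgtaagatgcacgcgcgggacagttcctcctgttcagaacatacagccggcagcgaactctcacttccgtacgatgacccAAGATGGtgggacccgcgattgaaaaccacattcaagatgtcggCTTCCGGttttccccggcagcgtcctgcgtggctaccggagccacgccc
Mrps18b, chr20:2842756-2843005, plus strand: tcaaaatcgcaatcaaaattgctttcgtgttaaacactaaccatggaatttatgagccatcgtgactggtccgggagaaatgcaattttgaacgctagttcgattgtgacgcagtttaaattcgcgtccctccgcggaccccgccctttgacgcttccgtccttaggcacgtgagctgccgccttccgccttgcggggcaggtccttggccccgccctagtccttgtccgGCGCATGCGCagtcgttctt

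The motif search covered 300 bases, the 250 shown and the 50 that follow, and the ETS and YY1 matches of Mrps18b lie in the part not shown. Promoters were found for 55 of the 68 members. The ETS motif was present in 19 of them (34.5%), against 9.22% of all 27457 promoters and 14.7% of the 11340 promoters of tested genes. The YY1 motif was present in 14 (25.5%), against 7.30% and 7.66%. The NRF1 core was present in 6 (10.9%), against 3.94% and 5.68%. No motif was found in 24 members, among them Mrpl34, which rose at 24 and 48 h. The median GC content was 56.3% in members and 52.3% over all promoters. A match describes these letters and not a bound site.

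Levels are given on a log2 scale on which every array has a mean of 0 and the same spread, as the study's z-scores have, so a difference of 1 is about 2-fold in signal and a level is relative to the other probes of its array. The share of probes well above background ran from 66.1% to 81.8% per array (median 72.4%), the 75th percentile of the signal from 1896 to 18416 units, no spot was saturated, and any array correlated with the rest at 0.940 to 0.993. Another array, 1 Hz 2 h replicate 2, was left out because its grid was misplaced and its correlation with the rest was -0.0102. The number of arrays limits the precision. All 7 neuron markers (Map2 and Rbfox3 among them) were well above background on every array, but so were all 5 astrocyte markers and all 6 of the oligodendrocyte lineage, so the cultures held glia as well. In bulk RNA, fewer cells of a type and less RNA per cell cannot be told apart. The sample numbers were used to divide the arrays into 4 runs, called culture series. A held numbers 1 to 18 (11 arrays) and B 22 to 36 (12). C held 37 to 54 (17) and D the numbers D1 to D15 (15). The cuts between A, B and C were set here, and no label says what the numbers stand for. Series were spread unevenly over arms and times. Untreated arrays came from A and C alone. At 24 h the 1 Hz arrays came from A, C and D, and the sham arrays from B, C and D. Such comparisons without series in the model also compared series.

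No mitochondrial ribosomal protein gene differed between stimulated and sham cultures by more than the replicate error allowed the test to call. Of 68 members, 0 passed an adjusted p of 0.05 for 1 Hz or iTBS against sham at any of the 5 times (limma, Benjamini-Hochberg over 35699 probes), and few probes of any kind did. For 1 Hz the share of all tested probes called was 0% at 0, 24 and 48 h, 0.0056% at 2 h and 0.0028% at 8 h, and for iTBS it was 0% at 0, 2, 24 and 48 h and 0.0056% at 8 h. At an unadjusted p under 0.05 the members numbered 0, 0, 1, 1 and 1 for 1 Hz at the successive times. Beside them stood 321, 395, 470, 817 and 524 of the 35699 probes. For iTBS the members numbered 3, 2, 0, 0 and 1, beside 1406, 759, 315, 197 and 636 probes. Untreated against sham cultures at 0 h gave 0 members as well (0.0028% of all probes, 0 members at the unadjusted p). The direct comparison of iTBS with 1 Hz gave 0 members at each time, with 0% of all probes called at 0, 24 and 48 h, 0.0056% at 2 h and 0.0028% at 8 h, and the unadjusted count was 1 member, at 48 h. Changes averaged over the times and the test of whether a change differed between times gave 0 members and 0% of all probes for each protocol. In those 4 tests the unadjusted count was 1 member, for the iTBS change between times. With each series and time as a block the members at an unadjusted p under 0.05 numbered 2, 0, 1, 1 and 10 for 1 Hz. Beside them stood 1161, 623, 1637, 1156 and 5133 of the 35699 probes at the successive times. For iTBS the members numbered 13, 16, 0, 0 and 3, beside 5795, 4064, 1148, 606 and 3057 probes. In that fit 0 members passed the adjusted p. No member passed in any of these comparisons when any single array was left out.

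The stalk protein gene Mrpl10 had the smallest unadjusted p of any member against sham in the fit without a block. Its levels after iTBS at 0 h were 9.85, 10.08, 10.66 and 10.85, and in sham cultures 9.16, 9.19, 9.50 and 9.74. All 4 iTBS arrays lay above all 4 sham arrays, a mean difference of 0.96 with a standard error of 0.36 (limma, unadjusted p = 0.0098, adjusted p = 1.00). With each series and time as a block its adjusted p was 0.102, and the lowest of any member in that comparison was 0.0676 (limma). At 2 h the iTBS values were 9.50, 9.81, 10.33 and 10.83 and the sham values 8.96, 9.31, 9.33 and 9.76, so that the groups overlapped (difference 0.78, standard error 0.36). At 8 h the order was the other way, -0.48 (standard error 0.41). Its probe, with a mean level of 9.68, is brighter than those of the other members, and the median change of 271 tested probes with levels from 9.07 to 10.8 was 0.49 for iTBS at 0 h and 0.46 at 2 h. For its partner Mrpl12 the 10 differences from sham ran from -0.35 to 0.31, none past the threshold.

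The remaining members with the smallest p give the scale of what was and was not seen. Mrpl23 had levels of 5.29, 5.49 and 5.95 after 1 Hz at 24 h and of 5.90, 6.08 and 6.58 in sham cultures, a difference of -0.61 (standard error 0.24, adjusted p = 1.00). Its groups overlapped, and the difference was -0.34 with each series and time as a block. Mrpl51 had levels of 3.20, 3.35 and 3.37 after 1 Hz at 24 h and of 2.97, 3.08 and 3.13 in sham cultures. Those groups did not overlap, but the difference of 0.25 (standard error 0.20) was close to its error. Mrpl42 had levels of 2.74, 3.22, 3.26 and 4.29 after 1 Hz at 48 h and of 2.26, 2.90 and 3.25 in sham cultures, a difference of 0.57 (standard error 0.27). The groups overlapped, and the highest value came from series A. Mrps18a, which sits in the large subunit, had levels of 5.79, 6.10, 6.20 and 6.49 after iTBS at 48 h and of 5.66, 5.68 and 5.95 in sham cultures, a difference of 0.38 (standard error 0.19). Here too the groups overlapped.

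For 1 Hz the other members with the smallest p were Mrpl20 (+0.35) and Mrps27 (-0.41) at 0 h, Mrpl17 (+0.32) and the release factor Mrpl58 (-0.41) at 2 h, Mrps27 (+0.48) and Mrpl44 (-0.43) at 8 h, and Mrps2 (-0.38) at 48 h. The Mrpl58 difference came from a single sham array at 8.63 beside 6.80, 6.95 and 6.95. Without that array, sham 2 h replicate 3, it was 0.017. Mrpl44, an RNase III-related protein, was -0.08 without 1 Hz 8 h replicate 1. For iTBS they were Mrpl52 (-0.58) at 0 h, Mrps27 (-0.37) at 2 h, Mrps5 (+0.31) at 8 h, Mrps22 (+0.14) and Mrps24 (-0.19) at 24 h, and Mrps30 (-0.13) at 48 h. Between untreated and sham cultures they were Mrps22 (+0.35) and Mrpl36 (-0.21). Between iTBS and 1 Hz they were Mrpl10 (+0.60) and Mrps23 (-0.26) at 0 h, Mrpl10 (+0.58) and Mrpl16 (-0.19) at 2 h, Mrpl44 (+0.37) and Mrps15 (-0.49) at 8 h, Mrpl23 (+0.45) and Mrpl51 (-0.33) at 24 h, and Mrps15 (+0.65) and Mrpl15 (-0.41) at 48 h. Averaged over times they were Mrps30 (+0.10) and Mrpl58 (-0.20) for 1 Hz, and Mrps18c (+0.10) and Mrpl15 (-0.12) for iTBS. The adjusted p was 1.00 for each in the fit without a block (limma). With each series and time as a block the lowest among them was 0.114, for Mrpl52 after iTBS at 0 h. Between the protocols at 48 h it was 0.163 for Mrps15 and 0.184 for Mrpl15 (limma), and none passed the threshold.

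Taken as a group the members shifted little. The median change against sham after 1 Hz was 0.08, 0.09, 0.00, -0.17 and 0.11 at the successive times, and the members higher than sham numbered 48, 51, 34, 13 and 55 of 68. After iTBS the medians were 0.05, 0.05, -0.03, -0.07 and 0.09, with 41, 37, 29, 15 and 46 members higher. Leaving out single arrays gave medians for 1 Hz of 0.01 to 0.15 at 0 h, 0.03 to 0.17 at 2 h, -0.04 to 0.10 at 8 h and 0.03 to 0.18 at 48 h, and for iTBS of -0.02 to 0.15, -0.02 to 0.11, -0.10 to 0.06 and 0.02 to 0.13. With each series and time as a block the 1 Hz medians were 0.05, -0.0041, -0.02, -0.12 and 0.03. The members higher then numbered 46, 33, 30, 18 and 39. The iTBS median at 48 h was then 0.02 with 41 higher, and at the other times it was unchanged. The probes compared were the 10801 other tested probes with levels between 2.80 and 7.29, the 10th and 90th percentiles of the members. Without a block their medians were between -0.04 and 0.06, and 42.8% to 62.9% of them were higher than sham. The highest share was for 1 Hz at 48 h. With the block their medians at 48 h were 0.05 for 1 Hz and 0.03 for iTBS. At 24 h the 13 and 15 members higher were the lowest counts for either protocol. The 24 h comparisons share 3 sham arrays, of which replicate 3 moved the medians most: without it they were -0.25 for 1 Hz and -0.18 for iTBS, and without replicate 3 of the stimulated group they were -0.08 and 0.03. Comparing single arrays of the same series at 24 h, the members higher after 1 Hz were 25 of 68 in series C and 24 in series D, and after iTBS 20 in B, 29 in C and 19 in D. At 48 h the within-series counts spread more widely, from 6 to 45 members for iTBS and from 30 to 47 for 1 Hz.

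**Figure D1:**
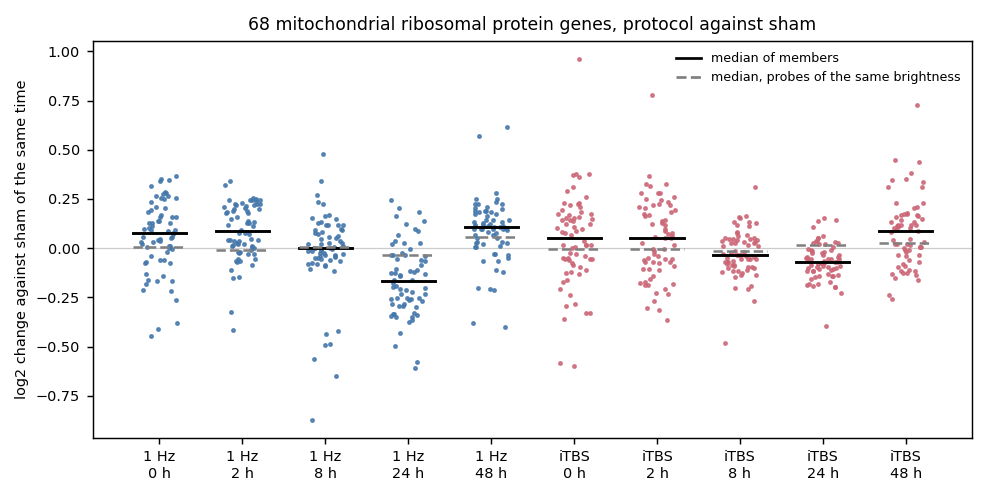
Log2 change of each of 68 members (points) against sham of the same time, for 1 Hz and iTBS at 0 to 48 h, with the median of members (black line) and of 10801 probes of the same brightness (dashed line). The member medians lie between -0.17 and 0.11 and the point highest above the rest at iTBS 0 h is Mrpl10 at 0.96.

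A size rule was also applied, with no test. The z-ratio is the difference of 2 group means divided by the standard deviation of that difference over all probes, and the study's methods take 1.5 as its limit. For 1 Hz, 0, 0, 3, 0 and 2 members passed it at the successive times, beside 9.85%, 10%, 11.1%, 9.7% and 11.7% of all tested probes. For iTBS 1, 1, 0, 0 and 1 passed it, beside 11.3%, 11%, 9.14%, 9.06% and 10.3%. Among probes of the members' brightness the shares were between 0.315% and 4.07%. The members were Mrpl32, Mrpl48 and Mrps7 for 1 Hz at 8 h, Mrpl38 and Mrpl42 for 1 Hz at 48 h, Mrpl10 for iTBS at 0 and 2 h, and Mrpl38 for iTBS at 48 h. The total of 8 was 4 with scaling to the 75th percentile, 5 with quantile normalization, 63 with normexp background correction and 10 on the deposited z-scores. The first 3 rested on 1 array, described below with the departures of single arrays.

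Between times some members passed, unlike for stimulation, but a smaller share of them than of other probes. With arms pooled and culture series in the model, 12 of 68 members differed between the 5 times (17.6% of members, against 27% of all tested probes and 32.8% of probes of the same brightness), 6 named for each subunit. In 10 of them the mean at 24 and 48 h was above that of the earlier times: Mrpl1, Mrpl2, Mrpl13, Mrpl34, Mrpl40, Mrpl51, Mrps16, Mrps17, Mrps23 and Mrps33. In Mrps2 and Mrps18b it was below. No member passed at 2 h against 0 h, where 0% of all probes did, or at 8 h, where 2.37% did. At the unadjusted p there were 0 and 4 members. At 24 h, 8 members passed (11.8%), against 14% of all probes and 18.6% of probes of the same brightness. Of these, 6 were higher (8.58% of all probes) and 2 lower (5.39%). At 48 h, 9 members passed (13.2%), against 27% of all probes and 31.7% of probes of the same brightness. Of these, 8 were higher (13.6% of all probes) and 1 lower (13.4%). At both late times 6 members passed.

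Mrpl34 and Mrpl13, proteins of the large subunit with bacterial counterparts, rose the most among the members that passed. The level of Mrpl34 ran from 6.31 to 7.47 with a median of 6.76 on 11 arrays at 0 h, from 6.85 to 7.64 with a median of 7.30 on 9 arrays at 24 h, and from 6.89 to 7.75 with a median of 7.18 on 11 arrays at 48 h. The ranges overlapped, with a difference of 0.43 at 24 h (standard error 0.10, adjusted p = 0.0028) and 0.42 at 48 h (adjusted p = 0.0011). Mrpl13 ran from 5.36 to 6.57 (median 6.10) at 0 h and from 6.08 to 6.99 (median 6.57) at 24 h, a difference of 0.49 (standard error 0.12, adjusted p = 0.0040), and was 0.45 above 0 h at 48 h. Mrps23 ran from 3.23 to 4.03 (median 3.70) at 0 h and from 3.83 to 4.17 (median 4.07) at 24 h. Its difference was 0.33 at 24 h and 0.34 at 48 h (standard errors 0.09 and 0.08).

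The other members that rose did so by smaller amounts. Mrpl51 was 0.34 higher at 24 h and 0.25 higher at 48 h (adjusted p = 0.049 by limma at 48 h, lost in 53 of 65 alternatives), and Mrps33 was 0.28 and 0.22 higher. Mrps16, a small-subunit protein, was 0.25 and 0.24 higher. Mrpl2 rose by 0.39 and Mrpl55 by 0.24 at 48 h. Neither passed at 24 h, and the difference between these times was not tested. Mrps2 ran from 1.66 to 3.35 (median 2.62) at 0 h and from 1.55 to 2.51 (median 2.20) at 24 h, a difference of -0.49 (standard error 0.17, adjusted p = 0.044). Mrps34 was 0.32 lower at 24 h, -0.32 on this scale (adjusted p = 0.021). Mrps18b had levels with a median of 2.47 on 11 arrays at 0 h and of 2.25 on 11 arrays at 48 h, a difference of -0.29 (adjusted p = 0.039). At 8 h its median was 2.88, above that at 0 h.

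**Figure D2:**
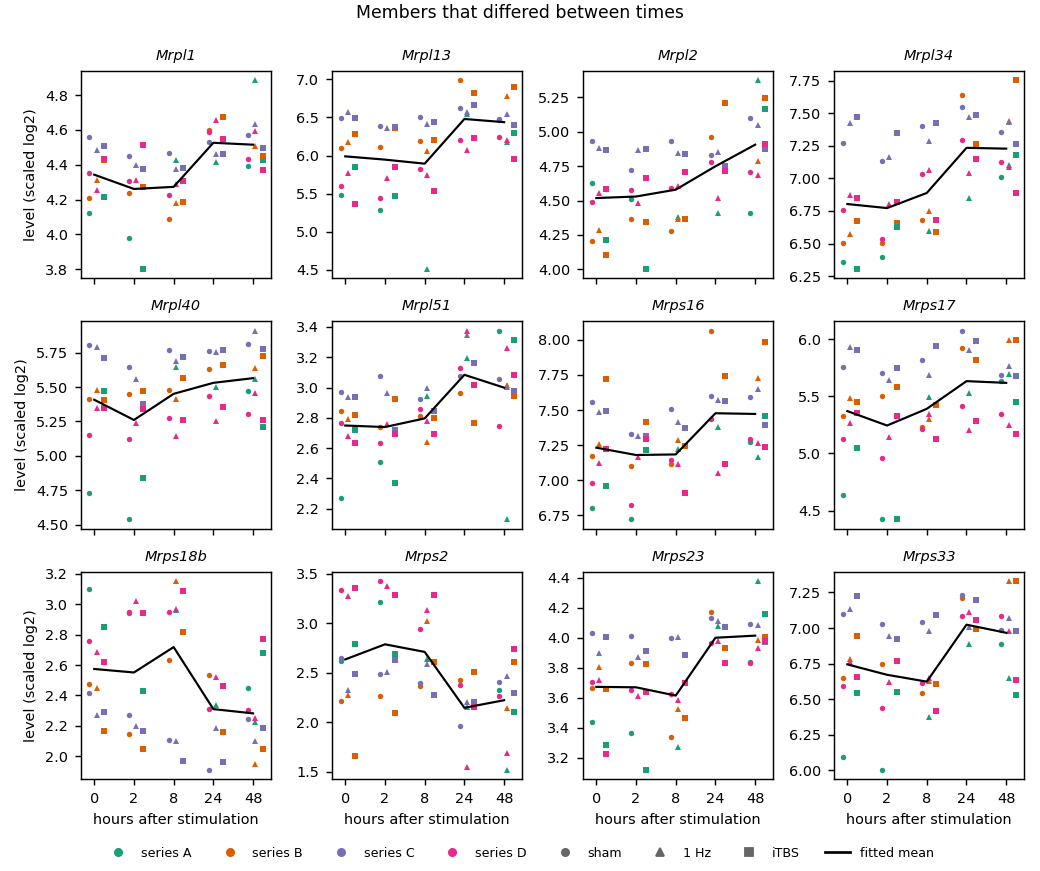
Level of the 12 members that differed between times on each stimulated or sham array, by hours after stimulation, coloured by culture series and shaped by arm, with the fitted mean (line). For Mrpl34 the median is 6.76 at 0 h and 7.30 at 24 h, and series differ within each time.

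These counts depended on the model and on single arrays. Without culture series in the model 2 members passed over all times, 0 at 24 h and 2 at 48 h, and with slide as a block 20 passed over all times and 1 at 24 h. The 24 h count was 5 without replicate 3 of the sham, 1 Hz or iTBS 24 h group, and the 48 h count was 4 without 1 Hz 0 h replicate 1 and 5 without sham 48 h replicate 1. In sham cultures alone 3 members differed between times (3.3% of all probes): Mrpl34, Mrps16 and Mrps33. At 24 h in sham only Mrpl34 passed (0.737% of all probes, 0.37% higher and 0.367% lower), with values of 7.30, 7.55 and 7.64 against 6.36, 6.50, 6.76 and 7.27 at 0 h. Those groups did not overlap, and the difference with series in the model was 0.68 (standard error 0.17, adjusted p = 0.048 by limma). This call was lost in 44 of 65 alternatives. The sham count was 0 without sham 24 h replicate 1 and 5 without sham 2 h replicate 2 or 1 Hz 8 h replicate 1. It was 1 without sham 24 h replicate 3, sham 2 h replicate 4 or sham 48 h replicate 1. The members with the smallest p at 2 h were Mrpl52 (+0.30) and Mrps18c (-0.15), and at 8 h Mrps27 (+0.20) and Mrpl44 (-0.28), none past the threshold. Astrocyte markers moved over the same times, with a mean level of 6.56 at 0 h and 7.20 at 48 h and 4 of 5 markers differing between times, and a summed signal of the 5 from 51130 to 172700 units at 0 h and from 86740 to 342500 at 48 h. Their part in the member changes was not tested.

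Members differed more between culture series than between times. Of 68 members 53 differed between the 4 series (limma, 77.9% of members, against 75.4% of all tested probes and 80.8% of probes of the same brightness), 33 of 42 large-subunit and 20 of 26 small-subunit members. The range of fitted means across series was 0.36 in the median member and from 0.10 to 0.82, against a median of 0.22 across times, and it was the larger of the pair in 55 of 68 members. Of the 53, 27 were highest in series C, 12 in B, 10 in A and 4 in D, and 23 were lowest in series D, 19 in A, 8 in B and 3 in C. In 11 members series and time both passed, and Mrpl1 passed for time alone. In 14 members neither of these tests over all series or times passed: Mrpl3, Mrpl16, Mrpl17, Mrpl35, Mrpl42, Mrpl46, Mrpl49, Mrpl52, Mrps15, Mrps22, Mrps24, Mrps30, Mrps31 and Mrps34.

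Series D was compared with the mean of the other series. In 34 members its level differed from that mean (53% of all probes), 30 lower (24.2% of all probes, 33.9% of probes of the same brightness) and 4 higher (28.9% and 24.7%). Mrpl19 had levels from 3.46 to 4.06 with a median of 3.78 on 15 arrays of series D. Medians in A, B and C were 4.31, 4.43 and 4.44, and the arrays of B and C lay wholly above those of D. The difference was -0.58 (standard error 0.06, adjusted p = 2.5e-10). Mrpl41, a large-subunit protein also linked to cell cycle arrest, had a median of 6.29 in D and 6.48, 6.66 and 6.82 in A, B and C (difference -0.43). Mrpl50 (-0.47), Mrpl22 (-0.44) and Mrps7 (-0.42) followed. The 4 that were higher were Mrps2 (+0.42, but -0.11 with the replicate number as a block), Mrpl4 (+0.37), Mrps18b (+0.29) and Mrps35 (+0.13). With that block 11 members passed. Against series A alone the members' median difference of D was -0.02, with 30 of 68 higher in D. Among members with a known special role, Mrpl12 of the stalk was -0.30 (standard error 0.07, adjusted p = 0.00095), its partner Mrpl10 -0.35 (adjusted p = 0.028), the membrane-attaching Mrpl45 -0.14 (adjusted p = 0.021), Mrpl18, which binds ribosomal RNA, -0.33 (adjusted p = 4.4e-05) and Mrps12 of the decoding centre -0.25 (adjusted p = 0.00083). Mrpl3, near the catalytic centre, was -0.16 and Mrpl44 -0.14, neither past the threshold (adjusted p = 0.068 and 0.10, limma).

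Series C was also compared with series A. In 34 members the means differed (42.9% of all probes), 28 higher in C (20.9% of all probes, 22.9% of probes of the same brightness) and 6 lower (22% and 23.8%). Mrpl34 had levels from 7.14 to 7.55 (median 7.40) on 17 arrays of C and from 6.31 to 7.18 (median 6.60) on 11 arrays of A, a difference of 0.69 (standard error 0.09, adjusted p = 7.9e-08). Mrpl13 ran from 6.36 to 6.66 in C and from 4.52 to 6.54 in A (difference 0.70), and Mrps17 from 5.64 to 6.07 and from 4.43 to 5.69 (0.67). Mrpl32 (+0.69) and Mrps33 (+0.61) were the other members with the largest positive differences. Mrps18b ran from 1.91 to 2.42 (median 2.19) in C and from 2.23 to 3.26 (median 2.85) in A, a difference of -0.62 (standard error 0.10). Mrps27 (-0.47), Mrpl58 (-0.33), Mrps22 (-0.31) and Mrps18a (-0.26, but 0.01 with slide as a block) were also lower. With slide as a block 19 members passed. So of the 3 Mrps18 paralogs, which occupy different places in the ribosome, 18a and 18b were lower in C than in A. Mrps18c did not pass in that comparison (limma, adjusted p = 0.056). In D against the rest 18c was lower (-0.25), 18b was higher (+0.29) and 18a did not pass (limma, adjusted p = 0.89). Mrpl38 had its highest median in A (4.21) and its lowest in B (3.33). Mrpl32 spanned 0.82 between series, but its ranges in A (1.47 to 5.37) and D (1.97 to 4.97) rest at their low end on few arrays. In A, 1 Hz 8 h replicate 1 was at 1.47 and iTBS 2 h replicate 3 at 3.13, and in D, iTBS 0 h replicate 4 was at 1.97.

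**Figure D3:**
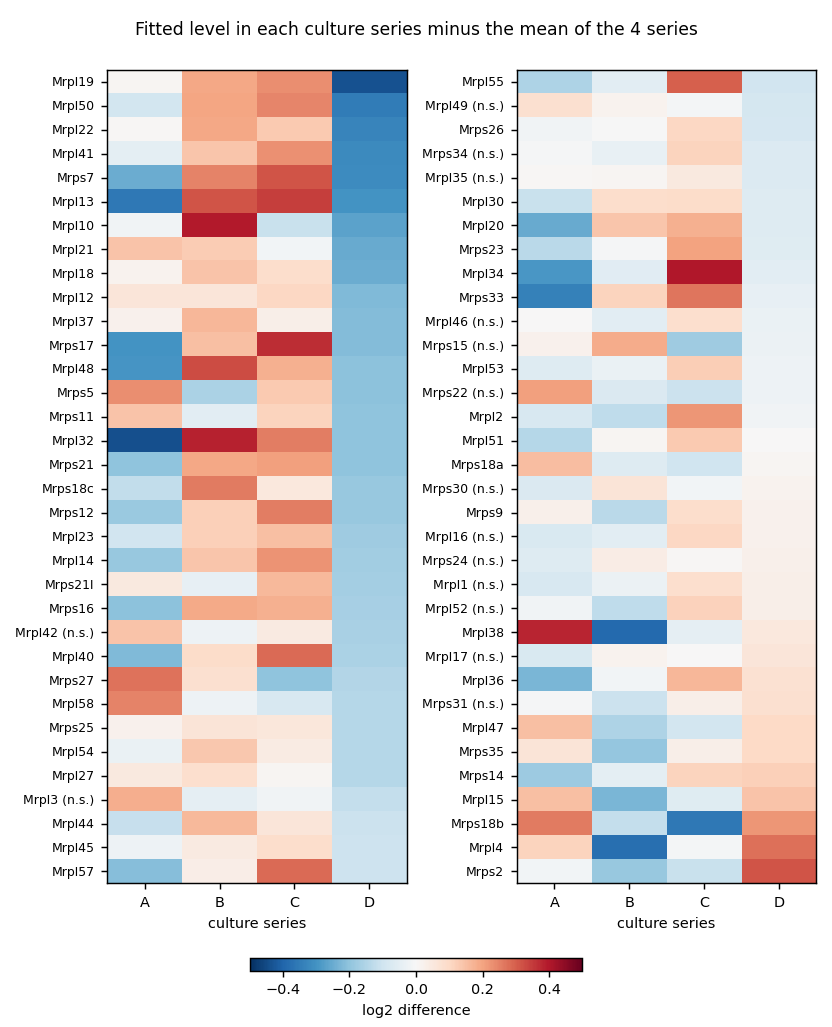
Fitted level of each of 68 members in culture series A to D minus the mean of the 4 series, on a log2 scale from -0.5 (blue) to 0.5 (red), ordered by series D, with members that did not pass the series test marked n.s.. Of the 53 members that passed, 27 are highest in C, 23 lowest in D and 19 lowest in A, while Mrps2, Mrpl4 and Mrps18b lie above the mean of the series in D.

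On single arrays the members' median stood above that of probes of the same brightness by 0.94 to 1.12 in series C (median 1.02), 0.80 to 1.17 in B (0.92), 0.34 to 0.92 in A (0.70) and 0.55 to 0.82 in D (0.67). Series C and D did not overlap. The cultures of the series also differed in cell type markers. The mean level of 6 oligodendrocyte lineage markers was 3.99, 5.91, 7.50 and 2.87 in A, B, C and D, and all 6 differed between series, the summed signal running from 7386 to 22490 units in D and from 87770 to 186200 in C. The level of the 3 matched markers of dividing cells was 5.77, 6.002, 5.89 and 3.81, that of the neuron markers 6.51, 5.84, 5.83 and 6.73, and that of the inhibitory neuron markers 2.30, 1.56, 1.16 and 2.78. The 4 excitatory neuron markers were at 3.35, 3.01, 2.83 and 3.27. Oligodendrocyte lineage and dividing-cell markers were thus lowest in D and the general and inhibitory neuron markers highest there, while the excitatory neuron markers were highest in A. Their part in the series differences was not tested.

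**Figure D4:**
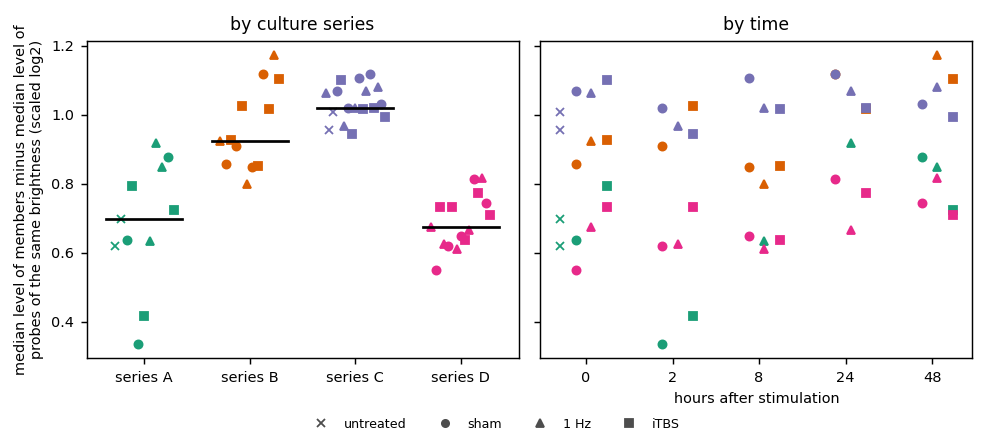
Median level of 68 members minus the median of probes of the same brightness on each array, in culture series (left, line at the series median) and by time (right, coloured by series). Series C (0.94 to 1.12) lies above D (0.55 to 0.82), whatever the arm.

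Within groups the members kept a narrower spread than other probes. The median standard deviation within a group was 0.27 in members, 0.33 in probes of the same brightness and 0.49 over all tested probes, from 0.14 (Mrps30) to 0.74 (Mrpl32). With series also removed the medians were 0.21, 0.24 and 0.37. The members' deviations from group and series also went together. Across the 55 arrays, the mean correlation over 2278 pairs of members was 0.20, against 0.03 for probes of the same brightness, and 1597 pairs (70.1%) were above 0. These share arrays, depth and scaling and are given as a description. Pairs within the large subunit (0.20), within the small (0.19) and across (0.20) had like values. Leaving out any single array gave 0.17 to 0.22 for members and 0.03 for the probes compared. Mrps12, the decoding-centre protein, had the highest mean correlation with other members (0.38), before Mrpl41 (0.38) and Mrps14 (0.36), and only Mrpl10 (-0.11) and Mrpl51 (-0.02) had a mean at or below 0. The closest pairs were Mrpl38 with Mrpl4 (0.92), Mrpl44 with Mrps7 (0.90), and Mrpl23 with Mrpl55 and Mrpl32 with Mrpl48 (0.89 each). The most opposed were Mrpl10 with Mrps22 (-0.79) and Mrpl50 with Mrpl58 (-0.75).

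A few members were very low on the same single arrays. On 1 Hz 8 h replicate 1, from series A, Mrpl32 was at 1.47 where the other arrays of its group were at 4.73, 5.08 and 5.10. Mrpl48 was at 4.83 (others 6.63, 6.80 and 6.81), Mrps7 at 3.35 (5.39, 5.70 and 5.73) and Mrpl52 at 0.31 (3.07, 3.22 and 3.26). Mrpl13, Mrpl44 and Mrps21 were also more than 1 below the other arrays, and Mrpl10 was 1.25 above them. On iTBS 0 h replicate 4, from series D, Mrpl32 was at 1.97 (others 4.77, 5.28 and 5.33), Mrpl48 at 5.05 (6.67, 6.996 and 7.36), Mrps7 at 4.52 (5.62, 5.63 and 5.90) and Mrpl52 at 1.63 (2.48, 2.93 and 3.08). So 4 members, Mrpl32, Mrpl48, Mrpl52 and Mrps7, were more than 1 below on both arrays, 5.88% of 68 members against 3.53% of probes of the same brightness. Most members were not: Mrps16 was at 7.22 on the first array (others 7.11, 7.29 and 7.42). Probes of the same brightness had 6.84% and 7.67% of values more than 1 below on these arrays, against 7 and 5 members (10.3% and 7.35%).

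Without 1 Hz 8 h replicate 1 the 8 h difference of 1 Hz against sham went from -0.87 to 0.00 for Mrpl32, from -0.56 to -0.08 for Mrpl48, from -0.65 to -0.08 for Mrps7 and from -0.49 to 0.23 for Mrpl52. Without iTBS 0 h replicate 4 the Mrpl32 difference of iTBS against sham at 0 h went from -0.60 to 0.19. On 1 Hz 48 h replicate 1, also from series A, 8 members departed by more than 1 (11.8% of members, against 15.8% of probes of the same brightness), with Mrpl38 1.75 and Mrps5 1.59 above the others of the group and Mrpl10 at -1.53. Over all arrays 46 of 3740 values departed by more than 1, on 18 arrays and in 20 members. On single arrays the share of members departing ran from 0% to 11.8%, and that of probes of the same brightness from 2.07% to 15.8%. Mrpl32 still differed between series without either array (adjusted p = 0.0208 and 0.0047, limma).

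**Figure D5:**
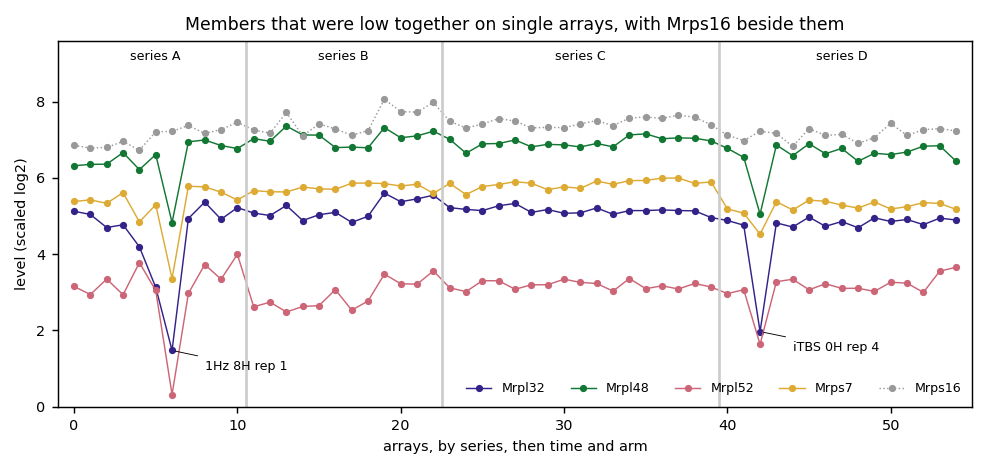
Level of Mrpl32, Mrpl48, Mrpl52, Mrps7 and, for comparison, Mrps16 on all 55 arrays ordered by culture series (vertical lines) and time. The first 4 drop together on 1 array of series A (Mrpl32 at 1.47) and 1 of series D (1.97), where Mrps16 stays at 7.22 and 7.23.

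Genes with related roles were counted beside the members. None of 5 tested mitochondrial ribosomal proteins with other symbols, 15 translation factors, 23 assembly and ribosomal RNA modification factors, 14 aminoacyl-tRNA synthetases or 13 transcription factors and regulators of mitochondrial genes passed for 1 Hz at 24 h or iTBS at 0 h. In both comparisons 0% of all probes passed, so these counts do not set the lists apart. Between times 0, 8, 9, 8 and 4 genes of these lists passed, beside 27% of all probes, and between series 5, 11, 19, 9 and 9, beside 75.4%. At 48 h against 0 h, where 27% of all probes passed, the structural proteins Gadd45gip1 (+0.32, adjusted p = 0.0273) and Ptcd3 (-0.22, adjusted p = 0.0382, limma) differed in opposite directions, although neither passed in the test over all times. Of the translation factors Gfm2 and Mtfmt (the methionyl-tRNA formyltransferase) were 0.53 and 0.44 higher at 24 h, while Slirp, an RNA stabilising protein, was lower by -1.34 (adjusted p = 0.0006). Among assembly factors, the methyltransferase Mettl15 rose by 1.36 at 24 h and 1.21 at 48 h and Mrm2 by 0.62 and 0.67, and Mrm3 was lower, at -0.34 and -0.48. Among the ribosomal proteins that passed, the sizes ran up to 0.49 at 24 h and 0.45 at 48 h.

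The cytosolic ribosome and the respiratory chain gave other values. Over 73 cytosolic ribosomal protein genes, the median change was 0.62 for iTBS at 0 h with 73 of 73 higher, beside 0.49 in probes of their own brightness, and -0.51 for 1 Hz at 24 h with 0 of 73 higher, beside -0.48. Over 87 respiratory chain and ATP synthase genes the medians were 0.30 (70 higher) and -0.32 (9 higher), beside 0.02 and -0.06 in probes of their brightness. The mitochondrial ribosomal proteins were at 0.05 (41 higher) and -0.17 (13 higher), beside -0.01 and -0.04. No gene of these sets passed in either comparison (0% of all probes). The mean correlation between members after group and series was 0.74 in the cytosolic set and 0.34 in the respiratory set, against 0.20 here. For series D against the rest, 58 of 73 cytosolic and 58 of 87 respiratory genes passed as lower. Among members 30 of 68 did, and 24.2% of all probes. By direction alone 3, 12 and 19 genes of these sets were higher in D. The median differences were -0.30, -0.30 and -0.13, beside -0.28, -0.06 and -0.05 in probes of their own brightness. For series C against A, 46 of 73 cytosolic genes passed as higher and 0 as lower, beside 20.9% and 22% of all probes. Their median difference was 0.30, beside 0.16 in probes of their own brightness. The sets differ in brightness, and whether they differed from each other was not tested.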

How the data were processed

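RNA from rat hippocampal cultures was labelled with 1 dye and hybridised to Agilent rat arrays. The intensity values deposited by the authors are Feature Extraction 12.0.3.1 processed signals, background-subtracted by the scanner software. The z-scores deposited by the authors, a score per spot, are log signals standardised within each array. Here log2 processed signals were averaged over spots that were not outliers, z-scored within each array and multiplied by the median standard deviation of the arrays (4.06). Scores recomputed for every spot of an array, before averaging and scaling, differed from the deposited z-scores by at most 0.0050. Probes well above background on at least 3 of 55 arrays were kept, 35699 of 45178. Array files name the genome build rn4. Genes were named by RefSeq accession through a GRCr8 gene table, so no probe coordinates are given, and promoters are from RefSeq.

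Protocol comparisons used limma 3.58.1 (R 4.3.3) on group means without covariates, and time and series comparisons added the culture series, with two-sided moderated tests and Benjamini-Hochberg adjustment over all tested probes at 0.05. The procedure was tested on simulated data. In each comparison the members that passed were named (up to 5 in each direction), or else the member with the smallest p in each direction. For time and series, members with the largest ranges and smallest p were named too, as were some fixed for their roles. Members and gene lists were chosen with earlier results of these data known. Alternatives were other scalings, normexp (on median signals, since mean signals were not in the files), no filter, mean over a gene's probes, slide, series or replicate blocks, all 56 arrays, and leaving out each array in turn.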

Additional observations from a re-analysis of the deposited data

Results flagged for a closer look

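Dixon's limit was applied to 18 sets of values, each from a group of 4 arrays. In each of 8 groups the array medians of members above probes of the same brightness were tested. The remaining sets were levels of single members that passed the z-ratio limit. In 3 sets, all of single members, 1 value was set apart from the rest of its group. A single far value can itself carry a member past the z-ratio limit, so the usual rate of about 1 in 20 does not apply to these sets. All 3 came from the same array, 1 Hz 8 h replicate 1. There Mrpl32 was at 1.472 (the other arrays at 4.729, 5.083 and 5.096), Mrpl48 at 4.827 (6.634, 6.796 and 6.813) and Mrps7 at 3.354 (5.387, 5.700 and 5.726). Why this array differed was not tested.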

How the results depend on the processing

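Protocol comparisons kept 0 members called, under every alternative but 1. With all 56 arrays, including the misplaced 1 Hz 2 h replicate 2, 55 members were called for 1 Hz against sham and 56 for iTBS against 1 Hz, the 1 Hz 2 h median was -2.126, and series, time, sham time, 24 h, 48 h, D against A, B and C, and C against A gave 8, 0, 0, 0, 0, 3 and 14. With slide as a block, time gave 20, 24 h 1 and C against A 19. Without culture series, time gave 2, sham time 0, 24 h 0 and 48 h 2. Replicate numbers did not pair the samples: deviations correlated at 0.16 within a number, with 0.576 of such pairs over 0.1, against 0.40 within a series. With the replicate block, sham time gave 1, 24 h 3 and D against A, B and C 11. The z-ratio count of 8 was 4 after scaling to the 75th percentile, 5 after quantile normalization and 63 after normexp. Leaving out each array gave 49 to 55 members for series, 11 to 15 for time, 0 to 5 for sham time, 5 to 8 at 24 h, 4 to 12 at 48 h, 30 to 35 for D against A, B and C, and 29 to 36 for C against A.

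Of 73 named results, 9 turned direction under some alternative. With all 56 arrays these were Mrpl17 (-2.47, 1 Hz 2 h), Mrpl16 (1.66, iTBS against 1 Hz 2 h), Mrpl52 (-0.28, time 2 h), and Mrpl58 (0.21) and Mrps22 (0.14) for C against A. The others were Mrpl58 for 1 Hz at 2 h (0.017 without sham 2 h replicate 3, from -0.5931 without replicate 2), Mrps27 for time at 8 h (-0.0403 over all probes of the gene), Mrps2 for D against A, B and C (-0.11 with the replicate block) and Mrps18a for C against A (0.0142 with slide as a block). The cause was not tested.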

Other observations

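For 13 members more than 1 probe was matched, and the probes of a gene did not always move together. After group and series, deviations of the brightest and another probe correlated at 0.96 for Mrpl41, 0.94 for Mrpl45, 0.89 for Mrpl1 and 0.84 for Mrps11, but at -0.63 for Mrps21, -0.46 for Mrps35 and -0.23 for Mrpl17. For Mrpl17 the brightest probe was 0.17 higher at 24 h than at 0 h (adjusted p = 0.32 by limma) and the other probe 0.72 higher (adjusted p = 1.9e-05).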
